A study of Homo sapiens with 2 samples.

Results

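The small ribosomal subunit is built on 18S rRNA, and the last stretch of this RNA, from position 1201 to position 1904 of the deposited numbering, was examined for fragments that end in a cyclic phosphate. The stretch covers about the 3′ major domain, which folds into the head of the subunit, and the 3′ minor domain, which holds the decoding site. Its members were all listed 18S positions in that range, picked by position, although listing itself depended on reads. They number 620 of the 5047 positions listed for 18S and 28S rRNA together. The remaining 84 of the 704 positions in the range were not listed, and every listed position had at least 5 reads in at least 1 library. The annotated mature 18S rRNA is 1869 nt long in RefSeq, so 35 positions of the range, 10 of them listed, lie past its end. At the lower bound, positions 1201 and 1202 were the first inside, with 110 and 3480 poly I:C reads and 101 and 2043 mock reads. Positions 1199 and 1200, just outside, had 42 and 48 poly I:C reads and 34 and 49 mock reads.

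The 2 libraries were made from A549, an established cell line of human lung carcinoma epithelium. For one library the cells received 1 µg/mL of the synthetic double-stranded RNA poly I:C, delivered with the reagent Lipofectamine 2000 over 1 h, and for the other the Lipofectamine reagent without poly I:C (mock). RNA ends were captured by ligation to an adapter with RtcB, a ligase that accepts cyclic phosphate ends, and each value is a read count at a position of the rRNA. Each condition is 1 library, so no difference below has a replicate check and no p-value is given. Reads were amplified and no molecular identifier is described, so all intervals (95%) cover counting error only. The listed reads summed to 3764202 in the poly I:C library and 3079346 in the mock library.

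In the ribosome, the head of the small subunit swivels during translocation and lines the path of mRNA and tRNA with the body. The 3′ minor domain consists of helix 44, the long helix at the subunit interface whose base forms the decoding site, and helix 45, which carries a conserved pair of dimethylated adenines. The 3′ end itself is made late in maturation, when the endonuclease NOB1 removes the remainder of the first internal transcribed spacer. Double-stranded RNA in the cytosol activates oligoadenylate synthetases, whose product switches on RNase L, an endoribonuclease that cuts single-stranded RNA, rRNA included, and leaves cyclic phosphate ends. Other RNases and chemical hydrolysis leave such ends too, and no nuclease is assigned to a position here. The label of the stretch could not be checked against sequence. It is also not stated which base of a fragment a position marks or from where counting starts, so all domain names are approximate.

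The 3′ stretch of 18S rRNA differed little between the libraries in its total of cyclic phosphate ends. It held 303237 poly I:C reads and 280668 mock reads. As a share of all listed reads this was 8.06% (8.03 to 8.08) in the poly I:C library and 9.11% (9.08 to 9.15) in the mock library, a scaled ratio of 0.884 (0.879 to 0.888). The rest of 18S rRNA held 989715 poly I:C reads and 441544 mock reads, a ratio of 1.83 (1.83 to 1.84), and 28S rRNA had a ratio of 0.858 (0.856 to 0.859). Without scaling, the reads of the 3′ stretch differed 1.08-fold and those of the rest of 18S rRNA 2.24-fold. Of the 18S reads alone, the stretch held 23.5% (23.4 to 23.5) in the poly I:C library and 38.9% (38.7 to 39.0) in the mock library. All 18 positions of 18S rRNA with at least 100 reads over both libraries and a ratio of at least 10 lay outside the stretch. Without those 18, its share of the 18S reads was 38.4% in the poly I:C library and 39.1% in the mock library, a comparison added after the data were seen. The 18 held 504057 poly I:C reads and 3540 mock reads and were picked for a high ratio. Leaving them out therefore raises the poly I:C share by construction, and the closeness of the 2 shares is not a test.

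The scaling matters for the small differences. Counts were divided by each library's sum of listed reads, so more ends in the stretch and fewer ends elsewhere cannot be told apart. Under 4 other scalings (to the 18S reads alone, by the median ratio, without scaling, and without the strongly higher positions) every ratio is multiplied by 1 factor, between 0.683 and 1.27. A ratio above 1.46 or below 0.790 therefore keeps its side of 1 under all 5, and a ratio between those limits does not. The total of the stretch, at 0.884, is inside those limits and stood at 1.08 to 1.12 under 3 of the other scalings and at 0.603 when scaled to the 18S reads.

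**Figure D1:**
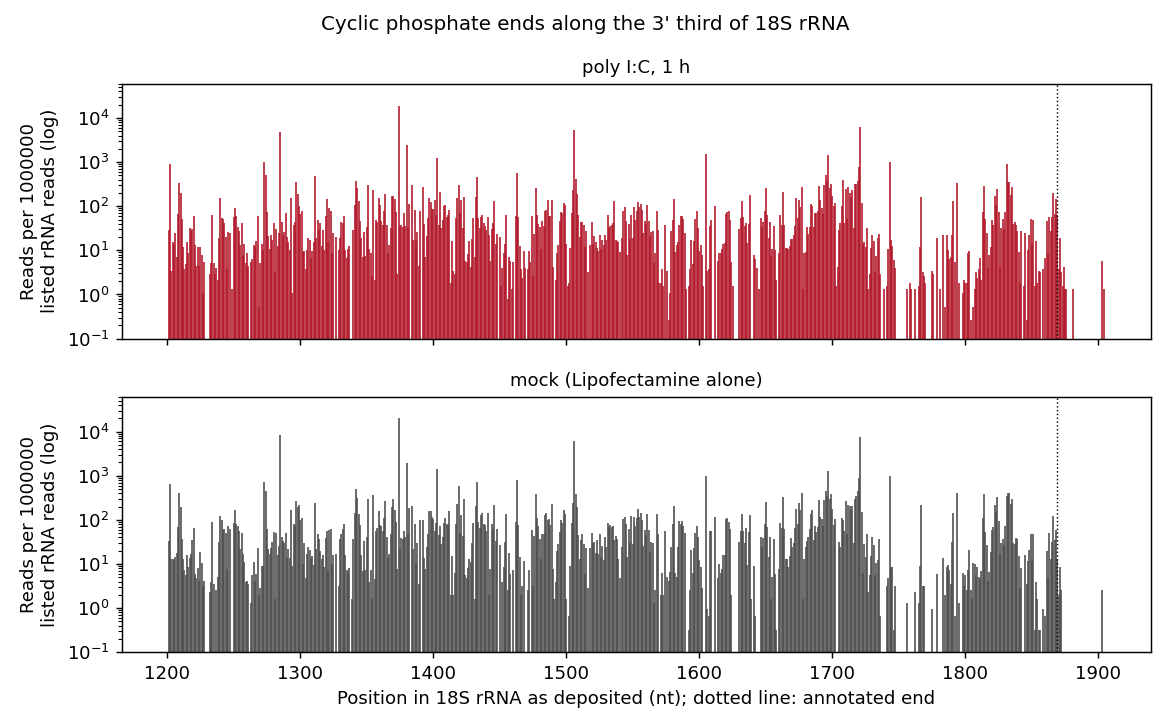
Reads per 1000000 listed rRNA reads (log axis) at each listed position from 1201 to 1904, in the poly I:C library above and the mock library below, with 1 line per position and the annotated end dotted. The tallest lines, at positions 1374, 1721, 1506 and 1285, stand at the same places in both libraries, and lines are sparse between about 1750 and 1800 and past the end.

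The same few sites dominated both libraries. Position 1374, in the head region, was the most frequent in each, with 71447 poly I:C reads and 64107 mock reads, which made up 23.6% (23.4 to 23.7) of the stretch in poly I:C and 22.8% (22.7 to 23.0) in mock. Together with positions 1721, 1506 and 1285 it made up 43.9% of the reads in poly I:C and 47.1% in mock. Of the reads of the stretch, the 10 most frequent sites accounted for 54.8% (poly I:C) and 55.4% (mock), and 9 sites belonged to the 10 of both libraries. It took 7 sites to reach 50% in the poly I:C library and 6 in the mock library.

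Position 1374 had a ratio of 0.912 (0.902 to 0.922). Position 1721, in the region of helix 44, had 23931 poly I:C reads and 22759 mock reads, a ratio of 0.860 (0.845 to 0.876). Position 1506 had 20120 poly I:C reads and 18988 mock reads, a ratio of 0.867 (0.850 to 0.884). These 3 ratios lie within the limits set by the scalings, with values of 1.05 to 1.15 under the 3 scalings that raise them. When scaled to the 18S reads, the same 3 positions stood at 0.587 to 0.623. Position 1285 differed from them. It had 17715 poly I:C reads and 26391 mock reads, a ratio of 0.549 (0.539 to 0.560) that stayed below 1 under all scalings, at 0.375 to 0.695.

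Among the next sites, position 1605 stood out on the other side, with 5882 poly I:C reads and 3041 mock reads, a ratio of 1.58 (1.51 to 1.65) that kept its side of 1 under all scalings, although only just when scaled to the 18S reads (1.08). Position 1273 had 3751 poly I:C reads and 2218 mock reads, a ratio of 1.38 (1.31 to 1.46). Position 1380 is 6 nt downstream of 1374 and had 9171 poly I:C reads and 5917 mock reads, a ratio of 1.27 (1.23 to 1.31). Both turned below 1 when scaled to the 18S reads, at 0.945 and 0.866. Positions 1697, 1743, 1403 and 1720, the remaining frequent sites, had ratios of 1.15, 1.00, 0.884 and 0.861, all within the limits set by the scalings. These 11 positions, which include the 10 most frequent of each library, all stayed within 2-fold in both directions under the main scaling.

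The frequent sites differed in how sharp they were. At position 1374 the larger of its direct neighbours held 0.183% as many reads as the site in the poly I:C library and 0.103% in the mock library. At position 1285 these shares were 0.937% in the poly I:C library and 0.481% in the mock library. Position 1605 also stood alone, at 0.221% in the poly I:C library and 0.0987% in the mock library. Position 1721 had a shoulder, since position 1720 before it held 12.2% as many reads in both libraries. Position 1697 was broader, with a larger neighbour at 24.9% in the poly I:C library and 26.8% in the mock library. Next to position 1273, position 1274 had 1875 poly I:C reads and 1416 mock reads.

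The libraries were also alike over the whole stretch. Across its 620 listed positions, Pearson's r between them was 0.941 on the scale of log2(reads per 1000000 + 1), and Spearman's rho was 0.950. Over the 1070 listed positions of the rest of 18S rRNA these were 0.891 and 0.923, and over the 3357 positions of 28S rRNA 0.870 and 0.883. Each condition is 1 library and positions were listed by their reads, so the coefficients are descriptions and were not tested against each other.

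For single positions, ratios were compared where both libraries together had at least 100 reads, which held for 387 of the 620 positions. In the poly I:C library those 387 carried 98.2% of the reads of the stretch, and in the mock library 98.5%. By a rule of size, 19 of the 387 (4.91%) had a ratio of at least 2, against 8.18% of all 2750 compared positions of both rRNAs. A ratio of at most 0.5 was found at 29 of the 387 (7.49%), against 10.1% of all. Neither share was tested. A ratio of at least 4 was found at 2 compared members (0.517%, against 4.04% of all). A ratio of at least 10 was found at 0 compared members, against 2.84% of all, which are 78 positions. Among compared positions, the highest ratio in the stretch was 4.81 and the lowest 0.325, whereas the rest of 18S rRNA reached 2918. No compared member had 0 reads in either library.

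The typical compared member had a ratio of 0.842, with quartiles at 0.661 and 1.05. The median log2 ratio was -0.25, beside -0.20 in the rest of 18S rRNA and -0.31 over all compared positions. Its sign followed the scaling and was positive under 3 of the 4 others, at 0.041 to 0.092. The SD of the log2 ratio over positions was 0.61 in the stretch, 1.23 in the rest of 18S rRNA and 1.41 in 28S rRNA, a difference that was not tested. The 10th percentile was 0.539 in the stretch, 0.549 in the rest of 18S rRNA and 0.471 in 28S rRNA, and the 90th percentile was 1.45 in the stretch, 1.63 in the rest of 18S rRNA and 1.91 in 28S rRNA.

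**Figure D2:**
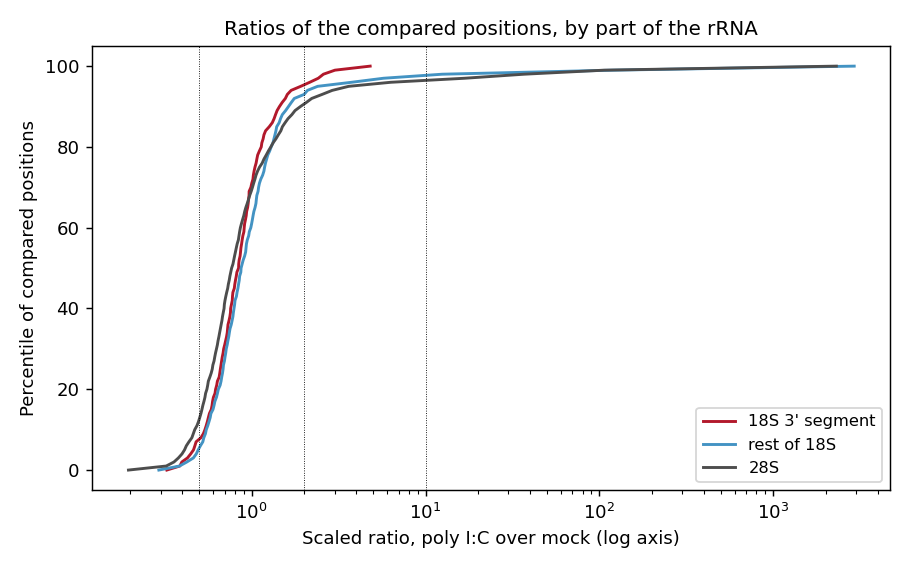
Percentile of the compared positions (vertical) against the scaled ratio of poly I:C over mock (log axis) for the 3′ stretch, the rest of 18S rRNA and 28S rRNA, with dotted lines at ratios of 0.5, 2 and 10. The curve of the 3′ stretch ends at 4.81, while that of the rest of 18S rRNA runs on to 2918 and that of 28S rRNA to 2303.

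The 19 higher members fell into 10 places, counting positions at most 10 nt apart as 1 place. Their share of the stretch was 3.95% in the poly I:C library and 1.33% in the mock library, and the counting interval lay wholly above 2 at 11 of them (5.82% of all compared positions passed that stricter rule). In the head region, position 1536 had 487 poly I:C reads and 107 mock reads, a ratio of 3.72 (3.01 to 4.63). The position directly after it, 1537, had 64 poly I:C reads and 133 mock reads, a ratio of 0.394 (0.287 to 0.534). This was the only one of 289 directly adjacent pairs of compared members with calls in opposite directions, and over those pairs the median difference between neighbours was 0.28 on the log2 scale.

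Between positions 1392 and 1405, 4 members were higher and together had 2472 poly I:C reads and 751 mock reads, a ratio of 2.69 (2.48 to 2.93). Position 1405 had 804 poly I:C reads and 222 mock reads, a ratio of 2.96 (2.55 to 3.45). Position 1392 had 1005 poly I:C reads and 311 mock reads, a ratio of 2.64 (2.33 to 3.01), and its neighbour 1393 had 150 poly I:C reads and 42 mock reads, a ratio of 2.92 (2.06 to 4.22). The frequent site 1403 lies inside this group, 2 nt before 1405, and its ratio was 0.884. A further 3 higher members lay between positions 1311 and 1320, with 2532 poly I:C reads and 974 mock reads in sum, a ratio of 2.13 (1.97 to 2.29). Of these, position 1320 had the highest ratio, with 558 poly I:C reads and 175 mock reads at 2.61 (2.20 to 3.11). Positions 1217 and 1268 were single higher members of the head region, at 2.26 (1.58 to 3.29) and 2.56 (1.95 to 3.38).

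In the 3′ minor domain, position 1708 had 1478 poly I:C reads and 302 mock reads, a ratio of 4.00 (3.54 to 4.55). That ratio was the second highest among the compared members. Position 1708 kept a ratio of at least 2.73 under all scalings. Position 1721, 13 nt further on and with far more reads, had 0.860. Position 1786 had 82 poly I:C reads and 26 mock reads, a ratio of 2.58 (1.64 to 4.18). The most frequent higher member was position 1831, with 3356 poly I:C reads and 1076 mock reads, a ratio of 2.55 (2.38 to 2.74). Position 1842 had 102 poly I:C reads and 25 mock reads, a ratio of 3.34 (2.14 to 5.40).

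**Figure D3:**
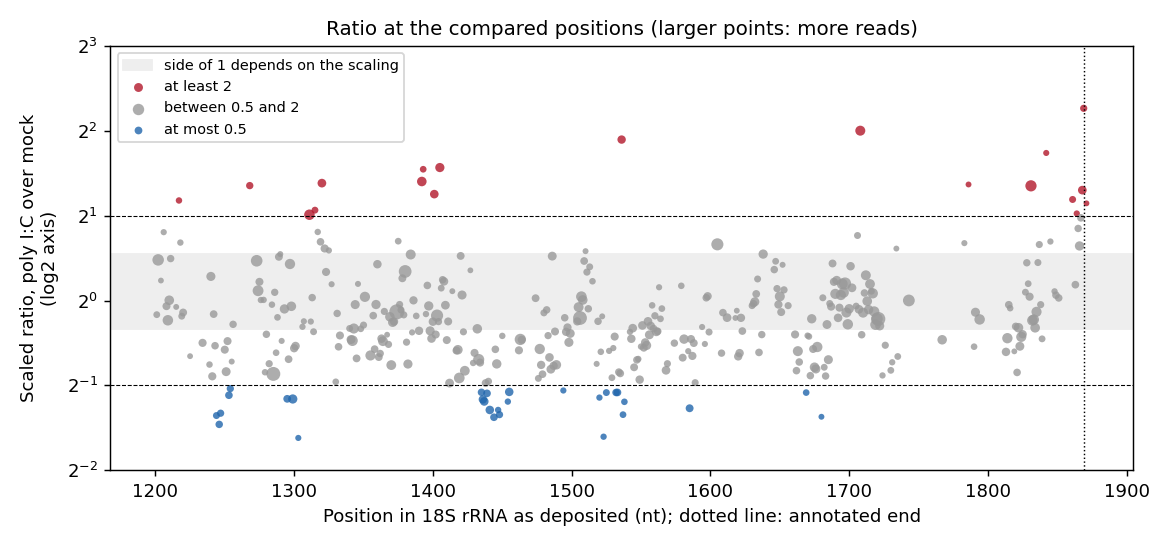
Scaled ratio of poly I:C over mock (log2 axis) at the 387 compared positions along the 3′ stretch, with larger points for more reads, dashed lines at 2 and 0.5, a grey band from 0.790 to 1.46 and the annotated end dotted. Points at or under 0.5 lie before position 1700 and 5 of the points at or over 2 lie within 10 nt of the annotated end.

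The 29 lower members, called among the compared positions only, fell into 8 places, all within the first 500 positions of the range. They had between 109 and 1055 reads over both libraries, made up 1.11% of the stretch in the poly I:C library and 2.27% in the mock library, and had ratios from 0.325 to 0.487. The largest group was that of 10 members between positions 1435 and 1455, which summed to 1469 poly I:C reads and 2754 mock reads, a ratio of 0.436 (0.409 to 0.465). Within it, position 1441 had 220 poly I:C reads and 440 mock reads, a ratio of 0.409 (0.346 to 0.482), and position 1444 had 114 poly I:C reads and 242 mock reads, a ratio of 0.385 (0.306 to 0.483). None of the 10 was among the most frequent positions of either library. Position 1442, directly after 1441, went the other way on 89 reads, below the minimum for comparison. It had 83 poly I:C reads and 6 mock reads, a ratio of 11.3 (4.98 to 31.7).

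Another 7 lower members lay between positions 1520 and 1538, with 563 poly I:C reads and 1043 mock reads, a ratio of 0.442 (0.398 to 0.490). They surround position 1536, which was higher. Position 1523 had 43 poly I:C reads and 107 mock reads, a ratio of 0.329 (0.225 to 0.472). A group of 5 lay between positions 1244 and 1254, with 499 poly I:C reads and 973 mock reads, a ratio of 0.420 (0.376 to 0.468). Its lowest member, position 1246, had 100 poly I:C reads and 225 mock reads, a ratio of 0.364 (0.284 to 0.462). Position 1303 had the lowest ratio of the compared members, 0.325 (0.216 to 0.481), on 37 poly I:C reads and 93 mock reads.

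The number of calls depended on the scaling. Scaled by the median ratio, 27 members were higher and 9 lower, so that higher members made up 75.0% of the calls, against 39.6% under the main scaling. Scaled to the 18S reads, 5 were higher and 140 lower, a share of 3.45%. The same factors apply to every compared position of both rRNAs, so calls outside the stretch move too. Over all 2750 compared positions, 225 were higher and 277 lower under the main scaling. Their calls under the other scalings were not counted, so the swing cannot be read as particular to the stretch. The counting interval lay wholly below 0.5 at 5 of the 29 (3.27% of all compared positions passed that rule).

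In the 7 full windows of 100 nt the ratios ran from 0.731 to 1.08. The lowest ratios were found in the window from 1201 to 1300, with 39678 poly I:C reads and 44384 mock reads at 0.731 (0.721 to 0.741), and in that from 1401 to 1500, with 26272 poly I:C reads and 29175 mock reads at 0.737 (0.724 to 0.749). The first of these rested on 1 position, since without position 1285 its ratio was 0.999. The second did not, since without position 1403 its ratio was 0.711, and it also held 11 of the 29 lower members. The window from 1301 to 1400 stood at 0.942, that from 1501 to 1600 at 0.836, that from 1601 to 1700 at 1.00 and that from 1701 to 1800 at 0.922. All 4 lie within the limits set by the scalings. The window from 1801 to 1900 had the highest ratio of the full windows, with 17004 poly I:C reads and 12893 mock reads at 1.08 (1.05 to 1.10), and without position 1831 it stood at 0.945, both within those limits too. In windows of 50 nt its last part, from 1851 to 1900, stood at 1.87 (1.75 to 2.00), on 2962 poly I:C reads and 1297 mock reads. The remaining positions from 1901 to 1904 had 27 poly I:C reads and 8 mock reads, a ratio of 2.76 (1.22 to 7.03).

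Coverage by ends was uneven. Of the 50 positions from 1751 to 1800, in the region of helix 44, 28 were listed, with 2953 poly I:C reads and 2708 mock reads. The 50 positions before them, from 1701 to 1750, had 44 listed positions with 43432 poly I:C reads and 38438 mock reads. The scarcity of ends from 1751 to 1800 was thus shared by both libraries.

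**Figure D4:**
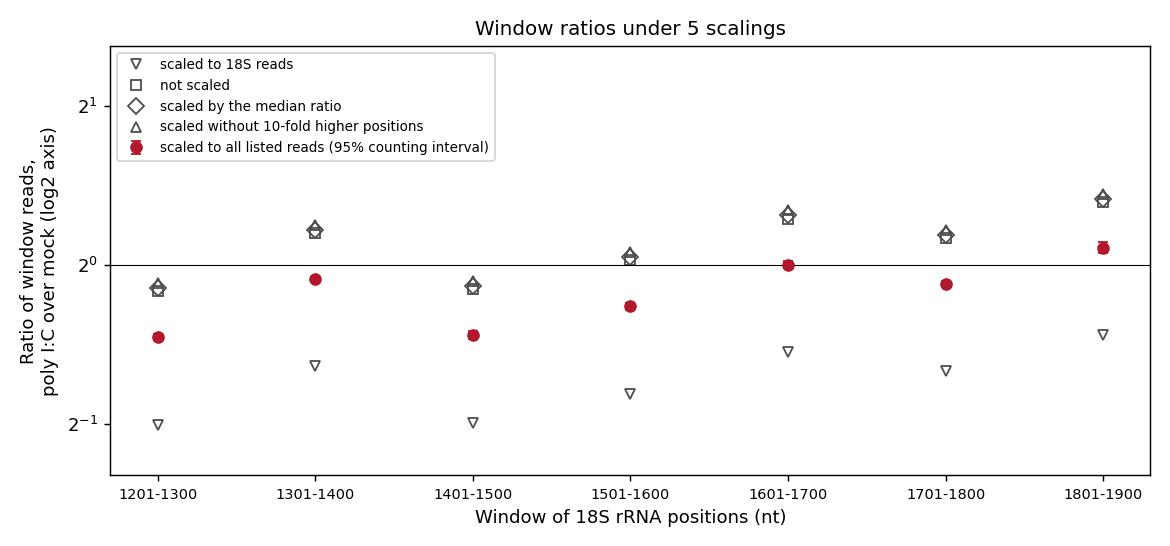
Ratio of the summed reads, poly I:C over mock (log2 axis), in the 7 full windows of 100 nt, scaled to all listed reads (filled, with 95% counting intervals) and under the 4 other scalings (open). The windows from 1201 to 1300 and from 1401 to 1500 are below 1 under every scaling shown.

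Split at position 1700, about the border between the head and the 3′ minor domain, the parts had different counts of calls. This split was not among the planned results. The first 500 positions of the range held 316 compared members, of which 10 (3.16%) were higher and 29 (9.18%) lower, with a median ratio of 0.795. Over all compared positions of both rRNAs, 8.18% were higher and 10.1% lower, so the share of lower members there was near that of all positions. The 169 positions from 1701 to 1869 held 70 compared members, of which 8 (11.4%) were higher and 0 lower, with a median ratio of 0.966. The count of 0 held under 3 of the other scalings. Scaled to the 18S reads, however, 3 were higher and 12 lower there, beside 2 higher and 128 lower in the first part. Shares over all compared positions under those scalings were not counted. Over all reads the ratio was 0.866 (0.861 to 0.871) in the first part and 0.958 (0.947 to 0.969) in the second. This difference has no replicate and was not tested.

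Ends near the annotated 3′ end of 18S rRNA lay in the upper part of the ratios of the stretch. The 17 listed positions within 10 nt of position 1869 had 2658 poly I:C reads and 1125 mock reads in sum, a ratio of 1.93 (1.80 to 2.07), which was 1.32 to 2.45 under the other scalings. They made up 0.877% (0.844 to 0.910) of the poly I:C reads of the stretch and 0.401% (0.378 to 0.425) of its mock reads. All 9 compared among them had a ratio above 1.05, the upper quartile of the stretch, and 5 had one of at least 2 (8.18% of all compared positions). Position 1869, the last nucleotide by the annotated length, had 235 poly I:C reads and 40 mock reads. Its ratio of 4.81 (3.43 to 6.90) was the highest among the compared members of the stretch. The most frequent end of this group was position 1866, with 733 poly I:C reads and 384 mock reads at 1.56 (1.38 to 1.77). Position 1868 had 536 poly I:C reads and 178 mock reads at 2.46 (2.08 to 2.94), and position 1863 had 217 poly I:C reads and 156 mock reads at 1.14 (0.922 to 1.41), so the ratios were uneven within a few nucleotides.

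**Figure D5:**
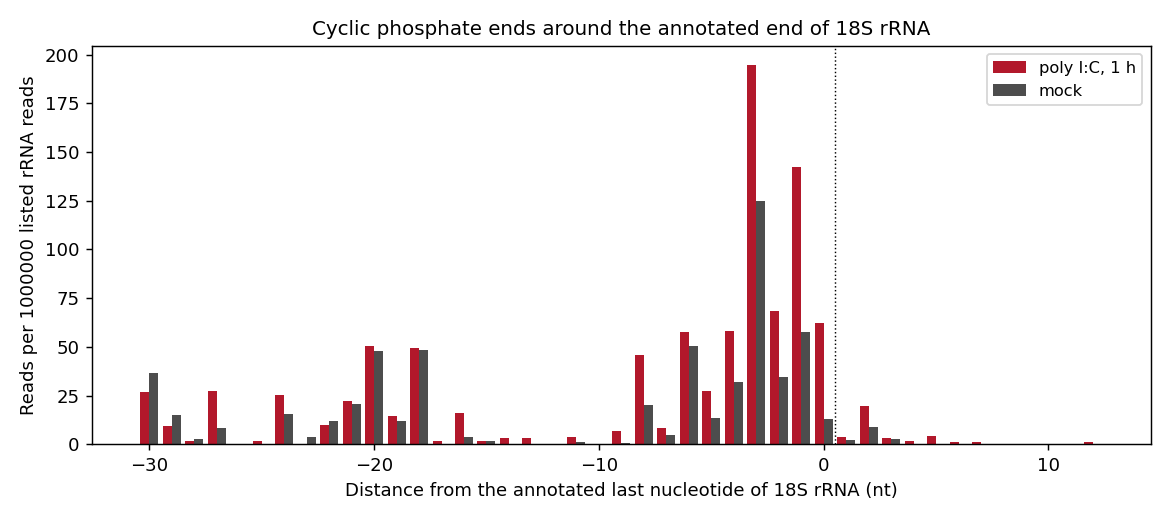
Reads per 1000000 listed rRNA reads at each listed position from 30 nt before to 12 nt after the annotated last nucleotide (dotted line after it), poly I:C left of mock. The poly I:C bars are taller at all 9 positions of the last 9 nt, and at 20 and 18 nt before the end the bars of the libraries are nearly equal.

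Just upstream, positions 1849 and 1851 had nearly equal scaled levels, with 189 and 186 poly I:C reads and 148 and 149 mock reads, and ratios of 1.04 (0.838 to 1.30) and 1.02 (0.819 to 1.28). Between 1852 and 1860, in the region of helix 45, the ends were scarce. The 7 listed positions there had 138 poly I:C reads and 25 mock reads together, a ratio of 4.52 (2.93 to 7.22). None of the 7 had enough reads to be compared singly, and their limits were chosen after the values were seen. Of the 7, 5 had fewer than 5 mock reads and so were listed only through their poly I:C reads, a selection that favours a high summed ratio. Position 1853, which is not one of those 5, had 61 poly I:C reads and 12 mock reads.

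Past the annotated end, where the precursor continues into the first internal transcribed spacer, 10 positions were listed, with 163 poly I:C reads and 49 mock reads, a ratio of 2.72 (1.97 to 3.83). Only position 1871 had enough reads to be compared, with 73 poly I:C reads and 27 mock reads at 2.21 (1.40 to 3.58). Position 1874 had 16 poly I:C reads and 0 mock reads. Its ratio was 4.36 with 3 mock reads taken as the floor, while its 95% counting interval starts at 3.15. Of the 10, 6 had 0 mock reads and were listed only because the poly I:C library, the one with more listed reads, reached 5 there. Neither that count nor the ratio of 2.72 is therefore free of the listing rule. The last listed positions, 1903 and 1904, had 22 and 5 poly I:C reads and 8 and 0 mock reads. Since the origin of the numbering is not given, whether these positions lie beyond the true end was not tested.

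The 233 members with fewer than 100 reads held 5451 poly I:C reads and 4144 mock reads in all, a ratio of 1.08 (1.03 to 1.12). Of these, 28 had 0 mock reads and 4 had 0 poly I:C reads, counts that depend on the listing rule of 5 reads in either library and on the larger number of listed poly I:C reads. The 233 members fell below the minimum for comparison, so none was called higher or lower, and most are not described singly. The summed ratio does not stand for each of them, since some counting intervals lay wholly beyond 2-fold, in both directions. Position 1500 had 52 poly I:C reads and 5 mock reads, with an interval from 3.42 to 27.3. Position 1806 had 2 poly I:C reads and 33 mock reads, with an interval from 0.00576 to 0.194.

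Depth set the certainty of the calls. Among the 81 members with at least 1000 reads, 5 were higher, namely 1311, 1392, 1405, 1708 and 1831, and 1 was lower, namely 1299 with 373 poly I:C reads and 682 mock reads at 0.447 (0.393 to 0.508). These were 6.17% and 1.23% of the 81, against 12.1% higher and 7.60% lower among all compared positions of that depth. Among the 138 members with 100 to 299 reads, 10 were higher (7.25%, against 7.07% of all of that depth) and 15 lower (10.9%, against 11.6%). At position 1786, on 108 reads, the interval of the ratio ran from 1.64 to 4.18, whereas at position 1374 it ran from 0.902 to 0.922.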

How the data were processed

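The authors deposited 1 table of raw read counts for 2 libraries, with a row for a position of 18S or 28S rRNA, per the file headers. Positions are printed in the authors' own numbering and without genome coordinates, because many near-identical rDNA repeats encode the rRNA. Per the labels' protocols, RtcB-ligated RNA was reverse transcribed, circularised and amplified without a selection of short RNAs. Build hg19 is named in the submitters' processing notes. Aligner, counting tool and rRNA target are not given in the sources, and no sequence of the stretch was used.

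Ratios are poly I:C over mock, scaled to each library's listed reads. Intervals are exact conditional binomial for ratios and exact Clopper-Pearson for shares (95%, SciPy 1.17.1, Python 3.11.15). A library at 0 reads was set to 3 reads. The ratio then depends on that floor and is not a firm bound, since the counting interval can reach past it. Positions with at least 100 reads were compared, and "higher" means at least 2-fold and "lower" at most 0.5-fold. The calculation was tested on simulated counts with known ratios and counting error only, so amplification and spread between libraries were not covered.

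Named positions were the 10 highest and 10 lowest ratios of compared members and the 10 most frequent positions of each library. The annotated end (RNA18SN5, RefSeq, GRCh38.p14) was also named. Position 1447 tied with 1441 among the lowest. Any position beyond these was picked once its values were known. Members, lists and rules were chosen with earlier results of these data known. Alternatives were other scalings, read minimums, thresholds, windows and summing of neighbours.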

Additional observations from a re-analysis of the deposited data

How the results depend on the processing

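No paired analysis was possible because the study has 1 library per condition, and for this reason no replicate was left out. The ratio of the stretch was 0.603 scaled to the 18S reads, 1.10 by the median ratio, 1.08 unscaled, 1.12 without the positions at least 10-fold higher and 0.937 without its 4 most frequent positions. Its share was 23.5% of the poly I:C and 38.9% of the mock 18S reads, 38.4% and 39.1% without the 10-fold higher positions, and 12.5% and 13.9% of all reads without the 14 positions most frequent in either library. The settings without 4 frequent positions, on 18S reads without 10-fold higher positions, and on windows without their most frequent position were chosen after seeing the data. Higher and lower members numbered 5 and 140 scaled to the 18S reads, 27 and 9 by the median ratio, 24 and 11 unscaled, 30 and 8 without 10-fold higher positions, 49 and 50 at 20 reads, 5 and 1 at 1000 reads, 66 and 62 without a minimum, 2 and 0 at 4-fold, 11 and 5 with intervals wholly beyond 2-fold, and 21 and 19 with neighbours summed. The median log2 ratio was -0.80 scaled to the 18S reads, 0.061 by the median ratio, 0.041 unscaled, 0.092 without 10-fold higher positions, -0.14 at 1000 reads and -0.16 without a minimum. Of 8 windows, 1 was above 1 scaled to the 18S reads and 6 under each of the other 3 scalings, against 3 in the main setting. Each scaling multiplies all ratios, those outside the stretch included, by 1 factor, so counts move while the order of the ratios is fixed. The cause of the other shifts was not tested. Shares of calls over all compared positions are given above for the main setting, intervals wholly beyond 2-fold and at least 1000 reads. For the other scalings, the other read minimums and summed neighbours none was counted. Those counts therefore say nothing particular about the stretch. With neighbours summed, 10 named positions were past 2-fold, against 20 singly, and position 1537 turned to 1.41, since that sum includes position 1536. The ratio near the end was 1.32 scaled to the 18S reads, 2.39 by the median ratio, 2.36 unscaled, 2.45 without 10-fold higher positions and 1.77 within 20 nt. The 5 most frequent positions held 47.0% of the poly I:C and 49.2% of the mock reads. Of the 31 named positions, 22 kept their side of 1 under all scalings and 9 did not. Depth limits positions with few mock reads: at 1842, with 25, the interval runs from 2.14 to 5.40.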
